A study of Mus musculus with 6 samples.

Results

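The enzymes that neutralise oxidants and conjugate reactive compounds with glutathione were described in epididymal white fat, the fat pad that lies beside the epididymis, of male mice aged 10 weeks. They comprised 90 probe sets of 51 genes, out of 45101 probe sets on the array and 18194 genes with a probe set of their own. A probe set is a group of short array probes that together read a transcript. Members were taken by gene name alone, from probe sets that the array annotation pairs with exactly 1 gene: the glutathione transferases (Gsta, Gstm, Gstt, Gstp, Gstk, Gsto and Gstz), the microsomal transferases (Mgst), the glutathione peroxidases (Gpx), the peroxiredoxins (Prdx), the thioredoxin reductases (Txnrd), the superoxide dismutases (Sod), and Gclc, Gclm, Gss, Gsr, Cat, Nqo1, Hmox1, Mt1, Mt2, Txn1 and Srxn1.

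The transgenic group (MUT in the labels) held 3 mice carrying aP2-nSrebp1c, and the wild type group (WT) held 3 mice without it that the series description calls matched by litter. Both groups were C57BL6;SJL, and the transgene is spelled in 3 ways in the strain labels (aP2-nSrebp1c, aP2-nSrebp1 and aP2-SREBP1c). The transgene places the nuclear, active form of the lipogenic transcription factor SREBP-1c under the promoter of aP2, the gene now called Fabp4. This promoter is active in fat cells and is also known to be active in macrophages, so the transgene need not be limited to fat cells. Each Affymetrix MOE430v2.0 array received total RNA of 1 mouse, and the deposited value is a MAS5 signal, a linear intensity. The labels call the transgenic mice lipodystrophic, meaning that fat tissue is lost or poorly formed.

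Transgenic replicate 2 stood apart from the other 5 arrays, and it touches every result below. Signal at the 3′ end of beta-actin exceeded that at the 5′ end 122.0-fold on this array and 1.11 to 1.81-fold elsewhere, and its median signal was 37.7 against 53.4 to 65.4. For Gapdh the gap was 55.9-fold against 0.772 to 1.22-fold, but for the control Pcx its 14.1-fold lay within the 3.06 to 52.0-fold of the others. These others were split for Pcx, with 3.06 and 3.1-fold on wild type replicate 3 and transgenic replicate 1. Wild type replicates 1 and 2 and transgenic replicate 3 had 40.6, 52.0 and 44.2-fold. A gap between the ends of a transcript can accompany degraded RNA. Fat cell markers were present on every array but not at an even level. Fabp4 read 12376 to 14121 over all 6 arrays, while Adipoq read 10674 to 12188 in wild type and 4626 to 6774 in transgenic fat (−0.93 ± 0.18 SE, limma adjusted p = 0.0448, and not called without any 1 wild type array or without transgenic replicate 3), and leptin (Lep) read 4115 to 5881 and 229.5 to 447.7 (−3.74, adjusted p = 0.00301). On transgenic replicate 2, Lipe, Cebpa and Cidec read 184.3, 351.3 and 226.8, far below the other transgenic arrays. Over 17 such markers the median log2 difference was −1.19, and −0.86 without transgenic replicate 2. Whole pads were measured, so fewer cells of a type and less RNA per cell cannot be told apart.

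As background, glutathione is a small peptide built in 2 steps, by glutamate-cysteine ligase (catalytic subunit Gclc, modifier subunit Gclm) and by glutathione synthetase (Gss), and its oxidised form is restored by glutathione reductase (Gsr). Peroxidases spend it on peroxides and transferases attach it to reactive lipids and foreign compounds, while peroxiredoxins work with thioredoxin in a parallel chain. The transcription factor NRF2 (gene Nfe2l2), held in check by KEAP1, switches on many of these genes through the antioxidant response element. In fat, these enzymes deal with the by-products of fatty acid oxidation and of inflammation.

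In transgenic fat the metallothionein gene Mt1 was the only member past the threshold in all 6 arrays. Without transgenic replicate 2, Srxn1 and Hmox1 rose most among the members, and Gclm, Gsr, Nqo1, Mt2, Gstt2, catalase and mitochondrial Prdx3 rose as well. Over the same 5 arrays, secreted Gpx3 and Sod3, the membrane transferases Mgst2 and Mgst3, and Gstt1, Gstt3, Gstm2 and Gstz1 fell. Fold changes are differences of log2(signal + 16), tested with limma, and adjusted p-values (Benjamini-Hochberg) cover the 27023 probe sets tested. A probe set is called at an adjusted p under 0.05.

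Of the 90 probe sets, 81 (47 genes) were bright enough to be tested. In all 6 arrays 1 of 81 passed the threshold (1.23%), against 2.97% of all tested probe sets. An unadjusted p under 0.05 was found in 26, a count for which no share over all probe sets was taken. After quantile normalization of the 6 arrays 9 of 81 passed, 7 higher and 2 lower, where 1167 of all tested probe sets passed. The fit without transgenic replicate 2 sets only transgenic replicates 1 and 3 against the 3 wild type arrays. In that fit 35 of 81 passed the threshold (43.2%), against 13.2% of all tested probe sets. Of these, 24 were higher and 11 lower in transgenic fat, where 6.96% and 6.23% of all probe sets were. By gene, 14 had a probe set that rose and 9 had a probe set that fell, and 0 genes had calls in both directions. The 3 transgenic values lay entirely above or below the 3 wild type values in 37 of 81 member probe sets (45.7%), against 27.2% of all tested probe sets, and 22 were higher (11.9% of all) and 15 lower (15.3% of all). With transgenic replicate 2 left out, 53 of 81 did not overlap (65.4%), 36 higher and 17 lower, against 42.6% of all tested probe sets (22.3% higher and 20.3% lower). The median log2 difference of the 81 was 0.05, and −0.09 over all tested probe sets, and without transgenic replicate 2 these medians were 0.17 and 0.03.

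The 35 probe sets called without transgenic replicate 2 did not overlap between the groups on those 5 arrays, which adds little because they were chosen on the same arrays. On the sixth array, transgenic replicate 2 kept the same side in 25 of them, lay inside the wild type range in 1 and lay on the opposite side of all 3 wild type values in 9. The matching shares among all 3565 probe sets called in that fit were not counted. All 35 also passed the threshold on the 5 arrays after quantile normalization. This too adds little, because the arrays are the same and more of all probe sets passed there (4954 against 3565). The scatter of the fold changes sets the 2 estimates side by side.

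**Figure D1:**
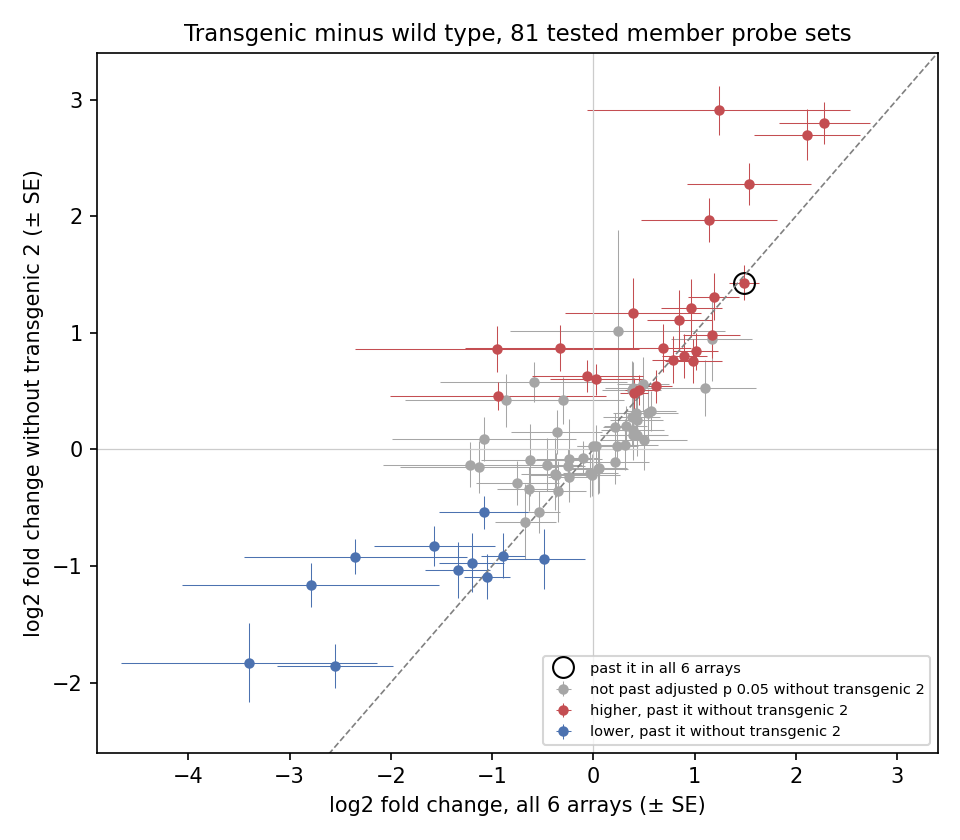
Log2 fold change (transgenic minus wild type, ± SE) of the 81 tested member probe sets in all 6 arrays (horizontal axis) and without transgenic replicate 2 (vertical axis), with the line of equality dashed. The circled point is Mt1, past the threshold in both, and the coloured points are the 35 past it without transgenic replicate 2, 24 higher (red) and 11 lower (blue).

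Probe sets of the same gene disagreed on transgenic replicate 2. For each of the 22 member genes with at least 2 tested probe sets, the difference from the wild type mean was taken on each array, and the range of these differences over the gene's probe sets was noted. The median range was 1.78 log2 units on transgenic replicate 2, 0.34 and 0.38 on transgenic replicates 1 and 3, and 0.15 to 0.18 on the wild type arrays. The range exceeded 1 in 13 of 22 genes on transgenic replicate 2 and in 3 on each of the other transgenic arrays. Glutathione reductase is the clearest case: its probe sets read 5.8 and 1304 on transgenic replicate 2, but 788.7 and 730.8 on replicate 1 and 1054 and 1069 on replicate 3.

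**Figure D2:**
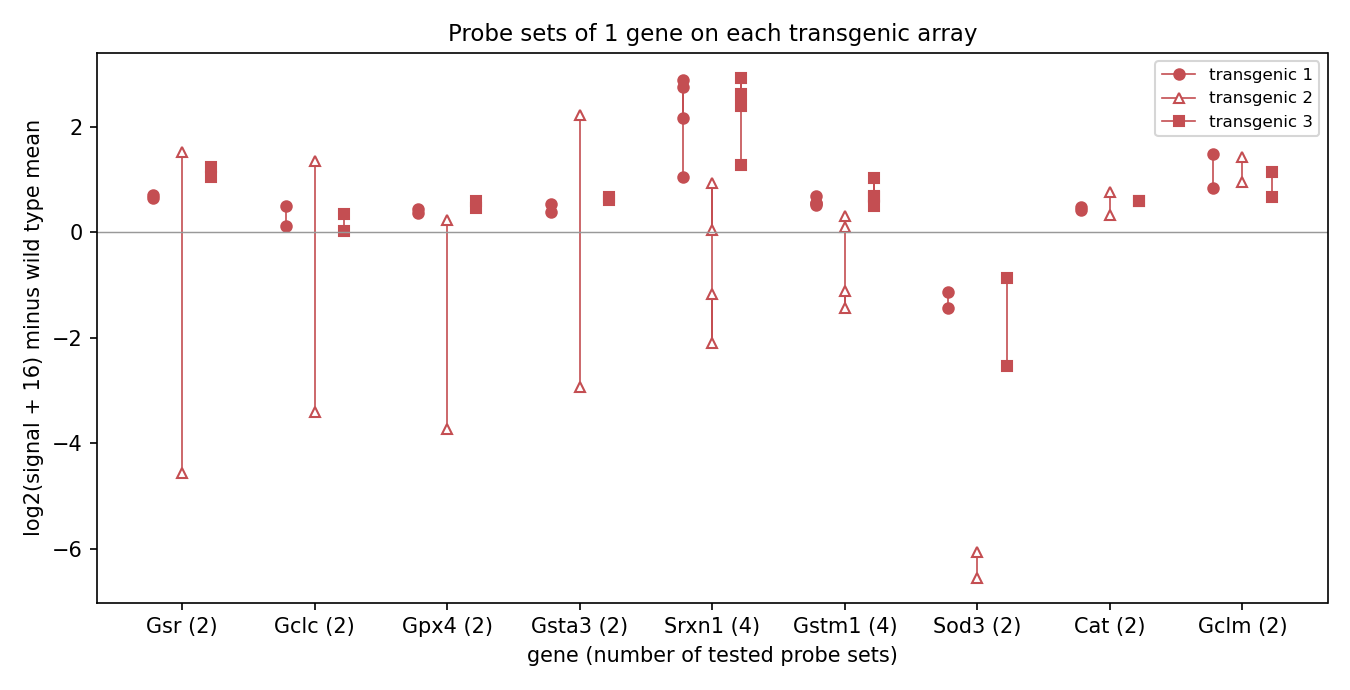
Difference of log2(signal + 16) from the wild type mean for every tested probe set of 9 member genes, on transgenic replicates 1 (circles), 2 (open triangles) and 3 (squares), with lines joining probe sets of 1 gene on 1 array. The triangles of Gsr span 6.09 log2 units against 0.06 and 0.19 on replicates 1 and 3, while those of Cat and Gclm span 0.44 and 0.48.

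Metallothioneins, small cysteine-rich proteins that bind zinc and copper and scavenge oxidants, were higher in transgenic fat on every array. The brightest Mt1 probe set read 3589, 3190.1 and 3661 in the wild type mice and 8422, 10646 and 10474 in transgenic replicates 1, 2 and 3. This probe set has the suffix _s_at, so it can read more than 1 transcript. The groups were far apart, and transgenic replicate 2 was here the highest of the 6 arrays. Mt1 rose 2.81-fold (log2 fold change 1.49 ± 0.15 SE, limma adjusted p = 0.00565), and 2.70-fold (adjusted p = 0.000286) without that array. Without wild type replicate 2 the adjusted p was 0.0522, and Mt1 then missed the threshold. Its dimmer probe set read 41.3 to 66.1 in wild type and 67.9 to 157.5 in transgenic fat (0.85 ± 0.32 SE, adjusted p = 0.26; 1.11, adjusted p = 0.0237 without transgenic replicate 2). Mt2, the neighbouring gene, read 2132, 1829 and 2601 in wild type and 3331, 4688 and 4299 in transgenic fat. These groups did not overlap, at 0.90 ± 0.22 SE (adjusted p = 0.0925) in all 6 arrays and 0.80 ± 0.19 SE (adjusted p = 0.0236) without transgenic replicate 2.

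Because Mt1 passed the test and Mt2 lay beside it with the same direction, the 250 bases before each annotated start are shown, from RefSeq (GRCm38.p6, + strand, 5′ to 3′). Capitals mark the letters TGCACNC or TGCGCNC on either strand, the core of the metal response element, through which the zinc-sensing factor MTF-1 induces metallothioneins. The same stretch before Gclm is shown with capitals at TGACNNNGC, the core of the antioxidant response element, on either strand.
Mt1, chr8:94178839-94179088: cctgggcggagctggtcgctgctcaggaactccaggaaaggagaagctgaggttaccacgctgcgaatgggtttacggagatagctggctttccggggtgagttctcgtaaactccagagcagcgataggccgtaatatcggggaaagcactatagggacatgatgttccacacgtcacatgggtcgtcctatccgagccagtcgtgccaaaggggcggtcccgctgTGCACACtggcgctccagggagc
Mt2, chr8:94172368-94172617: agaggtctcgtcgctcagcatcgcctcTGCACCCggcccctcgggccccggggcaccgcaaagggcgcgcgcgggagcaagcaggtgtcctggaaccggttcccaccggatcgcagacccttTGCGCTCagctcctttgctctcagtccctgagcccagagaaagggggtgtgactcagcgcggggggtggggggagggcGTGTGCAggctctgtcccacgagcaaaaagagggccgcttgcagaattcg
Gclm, chr3:122245307-122245556: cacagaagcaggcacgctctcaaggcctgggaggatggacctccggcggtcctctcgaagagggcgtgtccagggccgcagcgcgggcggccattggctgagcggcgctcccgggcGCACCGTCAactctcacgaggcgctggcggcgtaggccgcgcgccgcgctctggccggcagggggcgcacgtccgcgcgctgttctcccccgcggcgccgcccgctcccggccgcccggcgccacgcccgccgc
In windows of 250 bases before to 50 after an annotated start, Mt1 held 3 matches to the metal letters, of which 2 lie after that start. Mt2 held 4, of which 1 lies after its annotated start. Positions are counted from the RefSeq start, and where transcription began in this fat was not examined. At least 1 match to the metal letters was found in 28.8% of the 59 member promoters and in 25.7% of all promoters. At least 3 matches were present in 3 of 59 member promoters, those of Mt1, Mt2 and Gclm, and in 1.97% of all 32851 promoters of this length. The antioxidant letters were found in 15.3% of member promoters and 12.4% of all promoters, once in each of Gclm, Gsta3, Gstm5, Gstm7, Mgst1, Mt2, Sod1, Srxn1 and Txnrd1. The match of Srxn1 begins 29 bases into the transcript, and in Gclm the antioxidant match at −134 to −126 overlaps a metal match at −138 to −132. The sterol regulatory element letters TCACNCCAC, the site type bound by SREBP, were found in 3.39% of member promoters (Gstm6 and Gstm7) and in 1.24% of all. Promoters of 45 of the 51 genes were matched.

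Sulfiredoxin and haem oxygenase had the largest log2 fold changes of the families among genes that rose without transgenic replicate 2. Srxn1, which repairs over-oxidised peroxiredoxins, has 4 probe sets, and all rose without transgenic replicate 2. The one that kept its direction on every array read 182.3, 162.4 and 260.1 in wild type and 1430.4, 392.1 and 1309 in transgenic replicates 1, 2 and 3, so that even the low array lay above the wild type. Its log2 fold change was 2.11 ± 0.52 SE (adjusted p = 0.0964) in all 6 arrays and 2.70 ± 0.22 SE (6.48-fold, adjusted p = 8.55e-05) without transgenic replicate 2. The other 3 probe sets had 2.91, 2.28 and 1.17 on those 5 arrays (adjusted p = 3.65e-05, 6.58e-05 and 0.0331) and 1.24, 1.54 and 0.39 on all 6 (adjusted p = 0.658, 0.282 and 0.794). On transgenic replicate 2 these 3 read 17.0, 337.4 and 34.7, against wild type ranges of 104.8 to 156.0, 299.1 to 363.4 and 68.6 to 156.8. The first and last thus lay below all wild type values, and the second lay inside their range.

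Hmox1 encodes the inducible enzyme that breaks down haem to biliverdin, iron and carbon monoxide. It read 322.1, 318.2 and 294.7 in wild type and 2069.8, 761.9 and 2487 in transgenic replicates 1, 2 and 3. All transgenic values lay above all wild type values, with replicate 2 the lowest of the 3. The log2 fold change was 2.28 ± 0.45 SE (adjusted p = 0.0508) in all 6 arrays and 2.80 ± 0.18 SE without transgenic replicate 2 (6.98-fold, adjusted p = 1.56e-05). Macrophages that clear haem are rich in Hmox1, and summed signals of 20 macrophage markers were 19605 to 25150 in wild type and 37194 to 52148 in transgenic fat, with 5 of 20 genes higher and 0 lower in all 6 arrays (12 and 1 without transgenic replicate 2). Cd163, the macrophage receptor for haemoglobin, had −1.58 (adjusted p = 0.0801) and fell by 1.20 without that array (adjusted p = 0.00219). Adgre1, the F4/80 antigen of macrophages, had 1.67 ± 0.33 SE (adjusted p = 0.0516) and rose by 1.43 without that array (adjusted p = 0.00506). The part of macrophages in the Hmox1 value was not tested.

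Among enzymes that make and restore glutathione, Gclm and Gsr rose without transgenic replicate 2, and Gclc and Gss were not called. Gclm, the modifier subunit of the rate-limiting ligase, read 342.4, 354.7 and 428.7 in wild type and 1074, 739.2 and 842.0 in transgenic fat. The groups did not overlap (1.19 ± 0.25 SE, adjusted p = 0.0617), and without transgenic replicate 2 it rose 2.48-fold (adjusted p = 0.00226). Its second probe set rose by 0.76 on those arrays (adjusted p = 0.0286). Both probe sets of Gsr rose without transgenic replicate 2 (0.98 ± 0.20 SE, adjusted p = 0.0121, and 0.86 ± 0.20 SE, adjusted p = 0.0196). In all 6 arrays they differed in sign, at 1.17 ± 0.28 SE (adjusted p = 0.0877) and −0.95 ± 1.40 SE (adjusted p = 0.758). Gclc, the catalytic subunit, did not pass the test in either probe set (without that array, 0.42 ± 0.23 SE and 0.08 ± 0.26 SE, adjusted p = 0.285 and 0.891), and neither did Gss (0.15 and 0.17, adjusted p = 0.677 and 0.724). Nqo1, a quinone reductase, read 90.0 to 103.4 in wild type and 161.4 to 186.1 in transgenic fat with no overlap (0.79 ± 0.21 SE, adjusted p = 0.113), and rose 1.70-fold without transgenic replicate 2 (adjusted p = 0.0353).

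Of the peroxide-removing enzymes inside the cell, catalase, Prdx3 and Gpx4 rose without transgenic replicate 2. Catalase, the peroxisomal enzyme that splits hydrogen peroxide, read 5306, 4774 and 5439 in wild type and 6919.9, 6483 and 7845 in transgenic fat by one probe set, with no overlap. It had 0.45 ± 0.14 SE (adjusted p = 0.179) in all 6 arrays and rose by 0.51 (1.43-fold, adjusted p = 0.0359) without transgenic replicate 2, and the second probe set had 0.62 and 0.54 (adjusted p = 0.109 and 0.0385). Prdx3, the mitochondrial peroxiredoxin, read 2033, 1827 and 1979 in wild type and 3064, 5006 and 3994 in transgenic replicates 1, 2 and 3. Here transgenic replicate 2 was the highest array (1.01 ± 0.22 SE, adjusted p = 0.0687; 0.84, 1.79-fold, adjusted p = 0.00931 without it). Gpx4, the peroxidase that protects membrane lipids, split by probe set: one read 8002 to 10269 in transgenic against 6455 to 7035 in wild type fat, and the other read 9942 and 10153 but 535.6 on transgenic replicate 2. Both rose without that array (0.48, adjusted p = 0.039, and 0.46, adjusted p = 0.0331), and in all 6 arrays they had 0.40 and −0.94 (adjusted p = 0.215 and 0.685).

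Among the members without a call on either set of arrays were the other abundant intracellular antioxidants. Gpx1, the main cytosolic peroxidase, had −0.25 ± 0.17 SE (adjusted p = 0.505) in all 6 arrays. Sod1, the cytosolic copper-zinc superoxide dismutase, had 0.00 ± 0.16 SE at its brightest probe set, and mitochondrial Sod2 had 0.32 ± 0.21 SE (adjusted p = 0.492). None of the 9 tested probe sets of Gpx1, Sod1 and Sod2 passed without transgenic replicate 2 either (adjusted p = 0.522 to 0.934). Gpx7 and Gpx8, peroxidases of the endoplasmic reticulum, had −0.63 and 0.42 (adjusted p = 0.39 and 0.414). Prdx2, Txnrd3 and endoplasmic Prdx4 likewise had no probe set past the threshold, nor did Txn1, whose brightest probe set was higher on all 3 transgenic arrays (0.57 ± 0.25 SE, adjusted p = 0.324). The cytosolic reductase Txnrd1 had −0.30 ± 0.60 SE (adjusted p = 0.824) in all 6 arrays, and 0.42 ± 0.20 SE (adjusted p = 0.227) without transgenic replicate 2. Of 4 tested probe sets of mitochondrial Txnrd2, only the dimmest was called on those 5 arrays (−0.94, adjusted p = 0.0419; 0.09, −0.13 and −0.13 for the others).

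**Figure D3:**
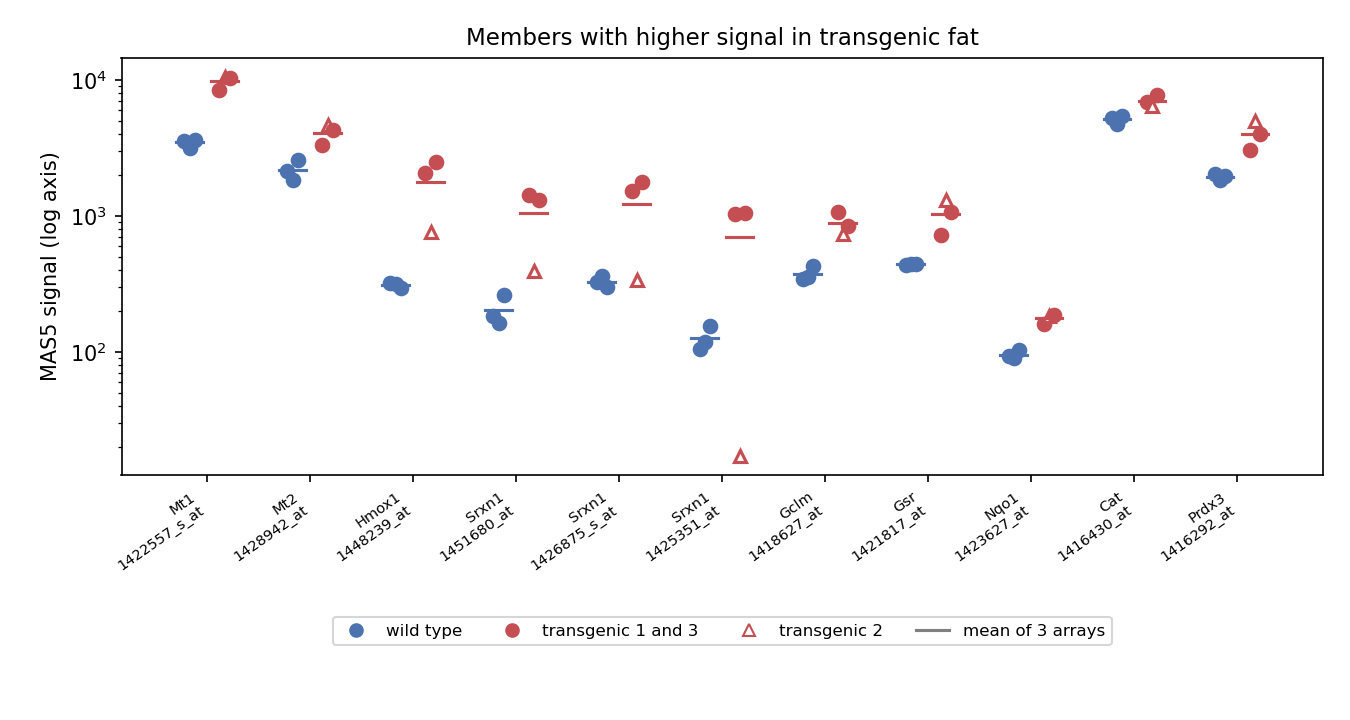
MAS5 signal (log axis) of 11 probe sets on each array: wild type (blue), transgenic replicates 1 and 3 (filled red) and transgenic replicate 2 (open triangle), with bars at the group means over 3 arrays. Mt1 reads 3190.1 to 3661 in wild type and 8422 to 10646 in transgenic fat, while the triangle of Srxn1 falls to 17.0 in one probe set and stays above the wild type points in another.

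The secreted enzymes Sod3 and Gpx3 were lower on all 3 transgenic arrays. Sod3, the extracellular superoxide dismutase bound to the matrix, read 5112, 4336 and 4671 in wild type and 1717, 54.0 and 2568 in transgenic replicates 1, 2 and 3. No transgenic value reached the wild type range, and replicate 2 was lower than the other 2 transgenic arrays by a wide margin. In all 6 arrays the log2 fold change was −2.79 ± 1.27 SE (adjusted p = 0.34), and without transgenic replicate 2 Sod3 fell by 1.16 ± 0.19 SE (2.23-fold lower, adjusted p = 0.00347). Its second probe set fell by 1.83 ± 0.34 SE on those arrays (3.56-fold lower, adjusted p = 0.00706). Gpx3, the plasma glutathione peroxidase, which fat tissue secretes, read 5394, 6626 and 6644 in wild type and 3076, 153.4 and 3453 in transgenic fat. It fell 1.90-fold without transgenic replicate 2 (adjusted p = 0.00347) and had −2.35 ± 1.10 SE (adjusted p = 0.355) with it. Beside these falls stand lower summed signals of 17 fat cell markers (116569 to 128969 in wild type and 67408 to 87944 in transgenic fat, with 0 higher and 2 lower in all 6 arrays, 1 and 10 without transgenic replicate 2) and of 14 endothelial markers (15332 to 17278 and 3502 to 11214, with 0 called in all 6 arrays and 8 lower without transgenic replicate 2). None of these markers averaged under 16. Their part in the values of Sod3 and Gpx3, and of the transferases that were lower, was not tested.

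The microsomal transferases, membrane proteins of the endoplasmic reticulum, divided. Mgst3, which also acts as a lipid peroxidase, read 4245, 3913 and 4137 in wild type and 899.6, 257.4 and 1378 in transgenic replicates 1, 2 and 3. The groups were widely separated (−2.55 ± 0.57 SE, adjusted p = 0.0717), and without transgenic replicate 2 Mgst3 fell by 1.86 ± 0.19 SE (3.64-fold lower, adjusted p = 0.000275), the largest fall among the genes' brightest probe sets on those arrays. A dimmer probe set read 84.4 to 101.5 in wild type and 12.4 to 45.1 in transgenic fat. It fell by 1.03 without transgenic replicate 2 (adjusted p = 0.0205). It passed the filter on dim probe sets through its wild type values, so it adds little as a second reading. Mgst2, which can make leukotriene C4, read 260.3 to 316.6 in wild type and 140.3 to 149.8 on all 3 transgenic arrays (−0.89 ± 0.22 SE, adjusted p = 0.0962; 1.88-fold lower, adjusted p = 0.0133 without transgenic replicate 2). Mgst1 was slightly higher on every transgenic array (0.21 ± 0.11 SE, adjusted p = 0.409) and was not called.

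Neighbouring genes of the theta class changed in opposite directions without transgenic replicate 2. Gstt3, Gstt1, Gstt4 and Gstt2 lie in this order on chromosome 10 with no other protein-coding gene between them in RefSeq. Gstt1 read 1289.7, 1485 and 1516 in wild type and 562.6, 713.0 and 777.6 in transgenic fat, without overlap (−1.05 ± 0.23 SE, adjusted p = 0.0663), and fell 2.13-fold without transgenic replicate 2 (adjusted p = 0.00529). Gstt3 read 222.7 to 261.3 in wild type and 67.5 to 158.1 in transgenic fat, and fell 1.95-fold on those arrays (adjusted p = 0.0321; −1.20 ± 0.32 SE, adjusted p = 0.118 in all 6). Gstt2, in contrast, read 512.7, 579.0 and 553.8 in wild type and 1861 and 2577 in transgenic replicates 1 and 3, but 376.1 in replicate 2. It rose 3.91-fold without that array (1.97 ± 0.19 SE, adjusted p = 0.000191) and had 1.14 ± 0.67 SE (adjusted p = 0.458) with it. Gstt4 read 2.1 to 15.7 in wild type and 49.2 to 87.9 in transgenic fat, too dim on average to be tested, and passed the threshold only when no filter on dim probe sets was used (log2 difference 1.78).

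The mu class, 7 neighbours on chromosome 3, also gave calls in both directions. Gstm1, a major cytosolic transferase, has 4 probe sets, of which 3 rose without transgenic replicate 2 (0.60, 0.63 and 0.87, adjusted p = 0.016, 0.0159 and 0.024) and the fourth had 0.53 (adjusted p = 0.16). The brightest read 4574 to 5075 in wild type and 6915 and 7746 in transgenic replicates 1 and 3, but 2208 in replicate 2, and its log2 fold change was 0.03 ± 0.46 SE in all 6 arrays. Gstm2 went the other way, with 2344 to 2566 in wild type and 1187, 275.3 and 1544 in transgenic fat (−1.57 ± 0.60 SE, adjusted p = 0.264), and fell 1.78-fold without transgenic replicate 2 (adjusted p = 0.011). Gstm6 rose 1.83-fold on those arrays (adjusted p = 0.0178), with 4.8 on transgenic replicate 2. Gstm3, Gstm4, Gstm5 and Gstm7 were not called. These genes are close in sequence, and probe sets with suffix _x_at or _s_at can read more than 1 transcript, so values within the mu class are uncertain as to the gene. Such a suffix is carried by 5 of the 35 called, which belong to Gstm1, Mt1, Srxn1 and Gpx4.

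The remaining transferase classes gave few calls. Gstz1, also known as maleylacetoacetate isomerase of tyrosine breakdown, read 4749 to 5445 in wild type and 3226, 1113 and 3755 in transgenic fat, and fell 1.45-fold without transgenic replicate 2 (adjusted p = 0.0359; −1.08 ± 0.44 SE, adjusted p = 0.293 in all 6). Gstp3 was dim, at 38.7 to 66.2 in wild type and 76.3 to 143.7 in transgenic fat, and rose 2.31-fold on those 5 arrays (adjusted p = 0.0123). Gstp1, the abundant pi class enzyme, had −0.10 ± 0.15 SE (adjusted p = 0.759). Gsta3 had probe sets of opposite sign in all 6 arrays (−0.59 and 1.10, adjusted p = 0.77 and 0.349) and of the same sign, uncalled, without transgenic replicate 2 (0.58 and 0.53, adjusted p = 0.0516 and 0.193). Gsta4, Gstk1, Gsto1 and Gsto2 were not called on either set of arrays as deposited. Gstk1, of mitochondria and peroxisomes, read lower on all 3 transgenic arrays (−0.54 ± 0.21 SE, adjusted p = 0.28). It passed the threshold without transgenic replicate 2 after quantile normalization (−0.57, adjusted p = 0.0148). Left untested as dim were 9 probe sets: all of Gpx2, Gpx6, Gsta2 and Gstt4, and 1 each of Gstm3, Mgst1, Prdx4, Sod1 and Txnrd1. Gpx5, a peroxidase of the epididymis, was dim (60.3 to 78.7 in wild type and 22.7 to 61.1 in transgenic fat), and the summed signal of 16 other epididymis markers was 355 to 426 and 240 to 403, with 7 of them under 16 on average.

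**Figure D4:**
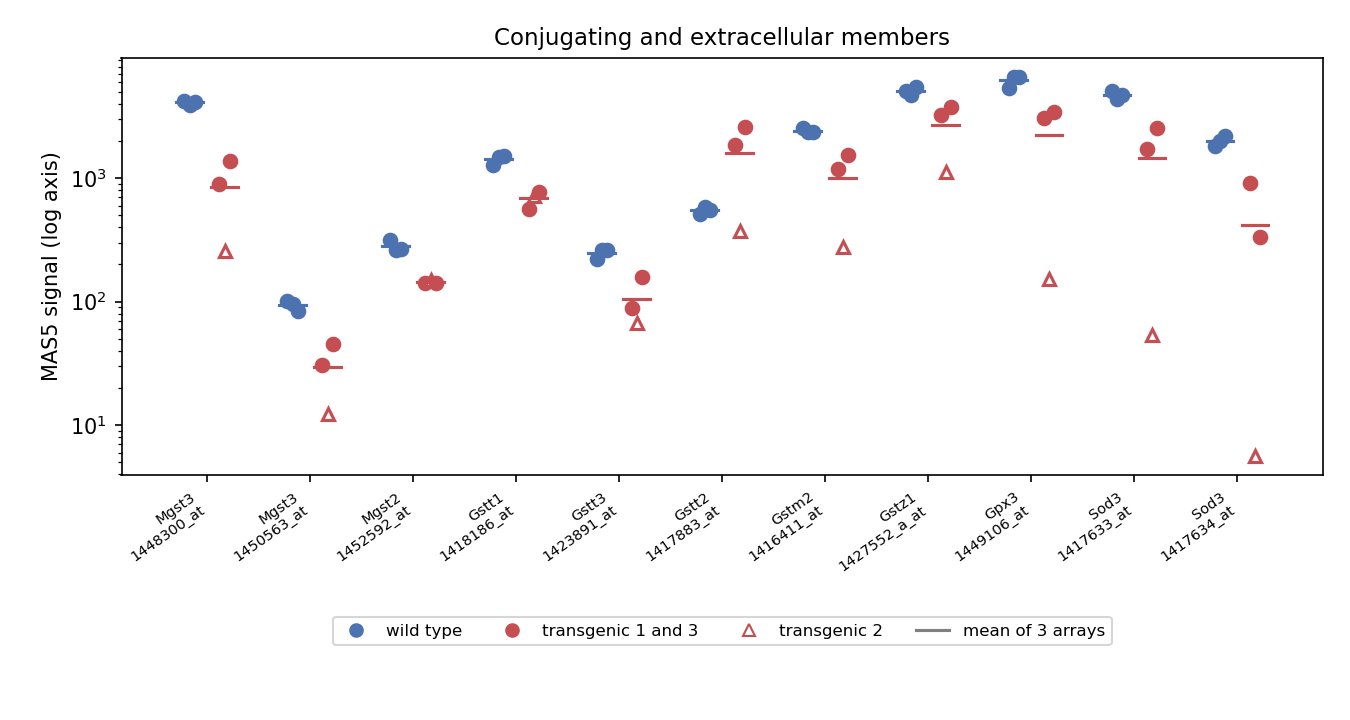
MAS5 signal (log axis) of 11 probe sets of transferases and secreted enzymes on each array, with the same symbols for wild type (blue), transgenic replicates 1 and 3 (filled red) and transgenic replicate 2 (open triangle) and bars at the means over 3 arrays. Gstt2 lies above the wild type points in replicates 1 and 3 and below them in replicate 2, while the other probe sets are lower on every transgenic array.

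Other genes of the same pathways were read from lists of named genes, each gene by its brightest tested probe set, where 3.77% of all 13112 genes passed the threshold in all 6 arrays and 15.4% without transgenic replicate 2 (8.04% higher and 7.33% lower). Among 22 NRF2 targets outside the families 1 rose and 0 fell in all 6 arrays, and 8 rose and 0 fell without transgenic replicate 2. The 8 were Pgd, Taldo1, Me1, Idh1, Ephx1, Cbr3, Akr1b8 and Blvrb, and Blvrb counts again in the metal and haem list. The list names known targets, and control of these genes by NRF2 was not tested. The highest adjusted p over the fits that leave out each array in turn is given as the highest leave-one-out adjusted p. Pgd, of the pentose phosphate pathway that supplies NADPH, read 3345 to 4087 in wild type and 8616 to 10399 in transgenic fat (1.41 ± 0.15 SE, adjusted p = 0.00618; highest leave-one-out adjusted p = 0.0604). On the 5 arrays other than transgenic replicate 2, Cbr3 and Akr1b8, which reduce carbonyl compounds, rose by 1.53 and 1.20 (adjusted p = 0.00107 and 0.00908), and the epoxide hydrolase Ephx1 rose by 1.44 (adjusted p = 0.000464). In all 6 arrays these 3 had 1.24, 1.03 and 1.23 (adjusted p = 0.112, 0.148 and 0.0527). Of 13 genes that control NRF2, 0 passed limma's test in all 6 arrays. An unadjusted p under 0.05 was found in 1, a count for which no share over all genes was taken. Sqstm1, which sequesters KEAP1, and Nfe2l1 rose without transgenic replicate 2 (0.80 and 0.54, adjusted p = 0.00431 and 0.0406). They had the opposite sign in all 6 arrays (−0.29 and −0.50, adjusted p = 0.883 and 0.781). Nfe2l2 itself had 0.60 ± 0.30 SE (adjusted p = 0.382), and Keap1 had −0.01 ± 0.43 SE (adjusted p = 0.991). Srebf1, which encodes SREBP-1 and may be read from the transgene too, rose by 1.08 ± 0.19 SE (adjusted p = 0.0342; highest leave-one-out adjusted p = 0.188).

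Of 18 genes of glutathione supply and turnover 0 passed limma's test in all 6 arrays. An unadjusted p under 0.05 was found in 4, again without a share over all genes. Without transgenic replicate 2, 3 rose and 2 fell. Anpep, a peptidase that takes part in glutathione breakdown, and Oplah, which reopens oxoproline to glutamate, rose by 1.68 and 1.17 (adjusted p = 0.0153 and 0.00153). The 2 that fell were Cdo1, which turns cysteine to sulfinate (−0.95, adjusted p = 0.00267), and the cysteine and glutamate transporter Slc1a1 (−0.88, adjusted p = 0.0219). In all 6 arrays these 4 had 0.53, −0.77, −1.20 and −0.81 (adjusted p = 0.802, 0.818, 0.0542 and 0.105). Among 17 other glutathione-linked enzymes Glrx, the cytosolic glutaredoxin, rose by 1.90 ± 0.25 SE (adjusted p = 0.0134; highest leave-one-out adjusted p = 0.107), and Ptges, the microsomal prostaglandin E synthase related to the Mgst enzymes, fell by 2.49 ± 0.36 SE (adjusted p = 0.0175; highest leave-one-out adjusted p = 0.124). Of 23 thioredoxin partners the methionine sulfoxide reductase Msrb3 fell by 1.26 ± 0.22 SE (adjusted p = 0.0341; highest leave-one-out adjusted p = 0.226) and 0 rose. In the selenoprotein list 1 of 20 rose, Selenok (1.33 ± 0.21 SE, adjusted p = 0.0263; highest leave-one-out adjusted p = 0.155). Without transgenic replicate 2 the counts were 4 higher and 3 lower for the glutathione-linked enzymes, 3 and 3 for the thioredoxin partners and 3 and 0 for the selenoproteins. The largest rises in these 3 lists were Hpgds, the haematopoietic prostaglandin D synthase of the sigma transferase class (2.13, adjusted p = 0.00177), the thioredoxin-like Nxn (1.46, adjusted p = 0.0019) and the selenocysteine lyase Scly (1.65, adjusted p = 0.000593). In all 6 arrays these 3 had 1.76, 0.84 and 1.20 (adjusted p = 0.0737, 0.486 and 0.219). Hpgds was dim, at 12.3 to 37.0 in wild type and 68.2 to 168.9 in transgenic fat. It passed the filter on dim probe sets through its transgenic values, so the size of its rise is uncertain.

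Oxidant-producing enzymes changed in both directions. Of 17 measured, the monoamine oxidase Maoa (1.14 ± 0.21 SE, adjusted p = 0.0409; highest leave-one-out adjusted p = 0.269) and the disulfide-forming oxidase Ero1a (1.65 ± 0.30 SE, adjusted p = 0.0387; highest leave-one-out adjusted p = 0.214) rose in all 6 arrays. Aoc3, the amine oxidase of fat cells that releases hydrogen peroxide, read 5882 to 6456 in wild type and 1095 to 1412 in transgenic fat, and fell by 2.31 ± 0.18 SE (adjusted p = 0.00241). The counts were 5 higher and 2 lower without transgenic replicate 2, among them the phagocyte oxidase subunits Cybb and Cyba (1.07 and 1.14, adjusted p = 0.0477 and 0.0184), which had 1.26 and −0.17 in all 6 arrays (adjusted p = 0.144 and 0.948). The endothelial nitric oxide synthase Nos3 fell by 1.33 (adjusted p = 0.000895; −1.98, adjusted p = 0.129 in all 6). Of 25 genes of metal and haem handling, Hp, which encodes the haemoglobin-binding haptoglobin, fell by 2.51 ± 0.32 SE (adjusted p = 0.0107; highest leave-one-out adjusted p = 0.0786), and 0 rose. Without transgenic replicate 2, 4 rose and 3 fell, among them the copper importer Slc31a1 (1.30, adjusted p = 0.00403) and the zinc and iron importer Slc39a8 (−1.36, adjusted p = 0.004), which had 1.12 and −1.15 in all 6 arrays (adjusted p = 0.104 and 0.12). Slc30a1, the zinc exporter known to be induced along with the metallothioneins, had −0.01 in all 6 arrays (adjusted p = 0.993) and 0.35 on the 5 arrays (adjusted p = 0.44).

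**Figure D5:**
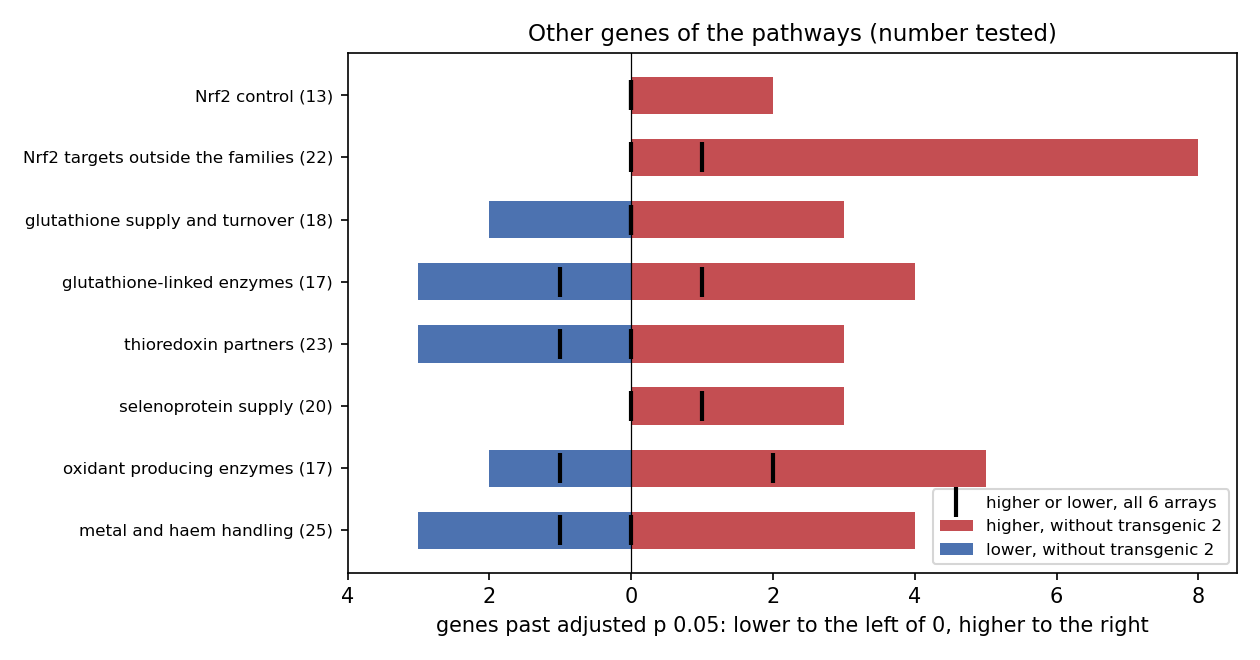
Number of genes in each pathway list past the adjusted p threshold without transgenic replicate 2, higher in transgenic fat to the right (red) and lower to the left (blue), with black ticks at the counts in all 6 arrays and the number tested in brackets. The 22 NRF2 targets outside the families give 8 higher and 0 lower, and the other lists give at most 5 higher.

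Of the 9 genes of these lists called in all 6 arrays, Aoc3 kept its call with any 1 array left out. Pgd lost it without wild type replicate 2 or 3, and Hp without any 1 wild type array. Glrx, Ptges and Ero1a, and likewise Srebf1, lost it without any 1 wild type array or without transgenic replicate 3, and Maoa, Msrb3 and Selenok without any 1 array other than transgenic replicate 2.

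Of the other cells that the pad could hold, 9 red cell markers summed to 967 to 1142 in wild type and 558 to 794 in transgenic fat. Alas2, the haem synthesis enzyme of red cell precursors, carried this sum (633.3 to 799.3 in wild type and 155.6 to 430.0 in transgenic fat), while the other 3 tested markers, Hba-a1, Hbb-b2 and Slc4a1, had 0.32, 0.05 and 0.33, and 0 of 4 were called by limma in all 6 arrays (1 lower, Alas2, without transgenic replicate 2). Red cells are rich in Cat and Prdx2. The 13 neutrophil and mast cell markers summed to 1062 to 1274 and 2577 to 3136, with 3 of 12 tested higher and 0 lower in all 6 arrays (7 and 0 without transgenic replicate 2). The 12 mesothelial markers summed to 7171 to 8123 and 2124 to 3094, with 0 higher and 2 lower (0 and 11). The 11 progenitor and fibroblast markers summed to 31715 to 35675 and 30477 to 36695, with 0 higher and 1 lower (1 and 3).

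The 12 skeletal muscle markers summed to 1679 to 2743 and 494 to 915, a difference carried by Myl1 (−2.17, adjusted p = 0.0401) and Acta1 (−2.88, adjusted p = 0.0737). The median of the 6 tested was 0.13, with 0 higher and 1 lower in all 6 arrays, and Mb, Myh2 and Tnnt3 averaged under 16. The 12 brown fat markers summed to 1135 to 1712 and 4665 to 6200, carried mostly by Cox8b, a mitochondrial subunit (324.5 to 690.2 in wild type and 3571 to 4616 in transgenic fat). Of 9 tested, Cox8b and Elovl3 rose and 0 fell in all 6 arrays, Prdm16 and Kcnk3 had −0.11 and −1.53 (adjusted p = 0.846 and 0.139), and the defining Ucp1, with Lhx8 and Zic1, averaged under 16. Without transgenic replicate 2 the counts were 0 higher and 2 lower for muscle and 3 and 1 for brown fat. The part of these cell types in the members' values was not tested.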

How the data were processed

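RNA of epididymal fat from 3 wild type and 3 transgenic mice was measured on 1 array each. The deposited values are MAS5 signal intensity on a linear scale, made by the authors per the submitters' processing notes; for the MAS5 version and scaling target, the label text is silent (not given in the sources used here). No further normalization was applied. log2(signal + 16) was taken from the deposited intensity, 64 control probe sets and the dimmest 40% of the rest were left out, and the groups were compared with limma 3.58.1 (R 4.3.3; lmFit, eBayes with trend, 4 residual degrees of freedom), with Benjamini-Hochberg adjustment over 27023 probe sets. The same fit was run without transgenic replicate 2, which leaves transgenic replicates 1 and 3 against 3 wild type mice and fewer residual degrees of freedom. The fitting code was tested on simulated data. A signal near or below 16 is close to background. Signals of different probe sets were set against each other to pick the brightest, to leave out dim ones and to sum markers. They were not otherwise ranked.

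Of 45101 probe sets, 34958 have 1 gene symbol, 932 several and 9211 none; those with several name no gene here. The array annotation can be old, and all 90 members have an entry in the RefSeq gene table. A gene in a pathway or marker list was read by the brightest of its tested probe sets. Named were genes past the threshold on either set of arrays, the brightest gene of each family, and Nfe2l2, Keap1, Srebf1, Fabp4, Adipoq and Adgre1. A pathway list gave up to 4 such genes by size of change, except that all called NRF2 targets were named. Cybb, Slc30a1, the cell type markers named singly and the uncalled members were chosen after their values were seen. The members and all lists were chosen with earlier results of these data known. p-values measure the spread between 3 mice per group, and the number of arrays limits the precision. The main fit did not pair the mice by replicate number. Tables and plots were made with Python 3.11.15.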

Additional observations from a re-analysis of the deposited data

Results flagged for a closer look

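Some probe sets of these families are shared by several gene names and so belong to no member, yet read above every wild type value on all 3 transgenic arrays. Of the probe sets assigned to both Prdx1, a cytosolic peroxiredoxin, and Gm21399, 5 did so, with log2 differences of 0.70, 0.69, 0.48, 0.54 and 0.89 in all 6 arrays (limma adjusted p = 0.0722, 0.0983, 0.164, 0.0945 and 0.126). Without transgenic replicate 2 the differences were 0.59, 0.61, 0.42, 0.51 and 0.72 (adjusted p = 0.0216, 0.0258, 0.0807, 0.0363 and 0.0234). The first read 6187, 5755 and 6256 in wild type and 8207, 11354 and 10207 in transgenic fat. They may share probes and are not independent readings. A dim probe set assigned to Gsta1, Gsta2 and Gm3776 read at most 22.5 in wild type and 33.5, 39.7 and 40.5 in transgenic fat (log2 difference 0.58) and was too dim to be tested.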

How the results depend on the processing

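Transgenic replicate 2 decided most calls, and 3 arrays per group limit the precision. With 1 array left out, the count of all probe sets past the threshold ran from 141 to 3565 (802 with all 6), that of member probe sets from 0 to 35 and of member genes, each read here by its brightest tested probe set alone, from 0 to 22 (23 genes by any probe set); the lowest counts came without wild type replicate 2 and the highest without transgenic replicate 2. Member probe sets past it are given with genes counted the same way in brackets. They numbered 2 (2 genes) with an offset of 64, no filter, a filter of 60% or no trend, where all probe sets gave 953, 697, 763 and 809. There were 4 (3 genes) with array medians centred, 9 (8 genes) after quantile normalization and 24 (16 genes) with array weights, where all probe sets gave 727, 1167 and 3359. Without transgenic replicate 2 and after quantile normalization the counts were 4954, 36 and 23. With probe sets of a gene averaged, 5 member genes passed, a count for which no share over all genes was taken. Hmox1 passed in all 6 arrays with an offset of 64 (adjusted p = 0.0435), a filter of 60% (0.0447), no trend (0.0499), quantile normalization (0.0238), medians centred (0.0159) and array weights (5.77e-05).

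With the replicate number as a block, 341 probe sets and 1 member passed. Deviations from the group means correlated at −0.374, 0.0892 and −0.0507 between arrays of the same replicate number. The highest correlation of any wild type with any transgenic array was 0.449, for wild type replicate 3 and transgenic replicate 1. The transgenic mean includes transgenic replicate 2, so these values cannot decide whether the mice were paired.

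Of all 81 tested member probe sets, 12 had opposite signs in all 6 arrays and without transgenic replicate 2. Among the 35 called without it, which alone were followed through every alternative, signs turned for 6. The brightest of Gstm1 (0.03) had −0.11 after quantile normalization, and −0.30 to 0.60 with 1 array left out (below 0 without wild type replicate 3 at −0.01 and transgenic replicates 1 and 3 at −0.22 and −0.30). The second of Gstm1 (−0.06) had 0.06 with medians centred. With array weights, without transgenic replicate 2, and without it after quantile normalization, it had 0.54, 0.63 and 0.52, Gpx4 (−0.94) had 0.29, 0.46 and 0.37, Gsr (−0.95) had 0.68, 0.86 and 0.84, and Gstm6 (−0.33) had 0.68, 0.87 and 0.87. The lowest values with 1 array left out were −0.44, −1.65 and −1.95 for this Gstm1, Gpx4 and Gsr probe set, all without transgenic replicate 3. The dimmest of Srxn1 (0.39) ran from −0.06 without transgenic replicate 3 to 1.17 without transgenic replicate 2. The cause was not tested. The recount of the pathway lists without transgenic replicate 2 was chosen after seeing the data. The median log2 difference of all tested probe sets was −0.09 as deposited and 0.03 after quantile normalization or median centring.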
